A study of Mus musculus with 12 samples.

Results

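The comparison described here asks which genes of mouse CD4+ T cells answered stimulation differently when calcineurin was inhibited. Each gene has 2 responses, the change from unstimulated to stimulated cells in vehicle and the same change under cyclosporin A (CsA), and the interaction is the CsA response minus the vehicle response on the log2 scale. A value below 0 means that stimulation moved the gene less far up, or further down, under CsA. The members are the genes with an adjusted p under 0.05 for that difference, 1865 of the 15057 genes tested in 11 libraries. No fold threshold was set.

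Splenic CD4+ T cells of C57BL/6 mice, isolated by an untouched purification, received ethanol (the vehicle) or 1 µM CsA for 1 h. They then stayed unstimulated (US) or were given 10 nM PMA with 1 µM ionomycin (PI) for 2 h, and RNA was made into libraries with Clontech SMART-seq chemistry. The 4 groups, ethanol_US, ethanol_PI, CsA_US and CsA_PI, hold 3 libraries each, with 10523816 to 18468044 estimated counts per library. The labels do not tie the 3 libraries of a group to separate animals or cultures, so each p-value reflects how far libraries of a group differed, and that difference may be technical. All groups share the strain, the organ and the isolation, and only the stimulated groups received PMA and ionomycin.

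PMA stands in for diacylglycerol and turns on protein kinase C and the Ras and MAP kinase routes, while ionomycin carries calcium into the cell. Calcium activates the phosphatase calcineurin, which removes phosphates from the NFAT transcription factors and lets them enter the nucleus, where they often bind next to AP-1 (Fos and Jun proteins) at cytokine genes. CsA binds cyclophilin, and the complex blocks calcineurin but leaves the protein kinase C branch in place, so the drug separates the parts of one stimulus.

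The library labelled CsA_PI 2 did not show a stimulation response. Over 8021 genes, its root mean square log2 difference was 0.353 from the ethanol_US mean, 0.457 from the CsA_US mean, 0.908 from the mean of the other CsA_PI libraries and 1.253 from the ethanol_PI mean. The other CsA_PI libraries lay 0.379 from each other's level. Main values are therefore from 11 libraries without it, a choice made from its values, and those of all 12 stand beside them. Levels are CPM, counts relative to the scaled library total, and the CPM printed for the library labelled CsA_PI 2 are on the scale of the 12-library fit.

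Cd4 was measured at 198 to 448 CPM and the T cell receptor subunit Cd3e at 176 to 314 CPM across the libraries, with Cd8a at 0 to 6.35 CPM. The summed level of 8 B cell markers was 540.1 to 1036 CPM in the 4 libraries numbered 2 and 83.4 to 166 CPM in the other libraries, and the sum of 9 myeloid and dendritic markers was 229.5 to 257 CPM against 31.3 to 53 CPM. No member of either list was at 0 in a whole group. Leaving out the library labelled CsA_PI 2 thus leaves the CsA_PI group without such a library. The median interaction of the B cell markers was -1.09 with 11 libraries and 0.73 with 12, that of the myeloid markers was -1.51 and 0.27, and 0 of the 8 and 0 of the 9 passed the test in edgeR in either fit. With all 4 libraries numbered 2 left out, a balanced set of 8 libraries chosen after these values were seen, 1777 genes passed the test and 1481 of the 1865 were among them. In bulk RNA, fewer cells of a type and less RNA per cell cannot be told apart.

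Of the 15057 genes tested, 765 (5.08%) had a higher and 1100 (7.31%) a lower interaction. With all 12 libraries the counts were 509 (3.54%) higher and 891 (6.19%) lower of 14398. The fits shared 1322 calls, which is 70.9% of the 11-library calls and 94.4% of the 12-library calls, and all 1860 of the called genes that both fits tested had the same sign. The balance of higher to lower calls depended on the scaling. With library totals in place of TMM scaling factors, 1184 were higher and 773 lower, and the median over all genes moved from 0.05 to 0.25, while all 1865 genes kept their sign. Directions below are relative to the TMM scale.

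By the shape of the 2 responses, 691 of the 1865 genes (37.1%) had a smaller rise under CsA than in vehicle and 361 (19.4%) had a positive estimate in vehicle and a negative one under CsA. On the other side, 301 (16.1%) had a smaller fall under CsA and 373 (20%) had a negative estimate in vehicle and a positive one under CsA. A larger rise under CsA was seen in 91 genes (4.88%) and a larger fall in 48 (2.57%). With 12 libraries these 6 classes held 613, 278, 252, 251, 6 and 0 genes, so the larger responses under CsA rest on leaving out the library labelled CsA_PI 2.

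Starting from the vehicle response gives the extent of dependence. Stimulation raised 2078 genes at least 2-fold in vehicle, of which 821 (39.5%) had a lower interaction, 24 (1.15%) a higher one and 256 (12.3%) were spared. Spared means here that the 95% confidence interval of the interaction lay within 1 log2 unit of 0 on both sides. The other 977 (47%) were neither called nor bounded in this way. Of 2332 genes that fell at least 2-fold in vehicle, 428 (18.4%) had a higher interaction, 3 (0.129%) a lower one and 370 (15.9%) were spared, which leaves 1531 (65.7%) undecided. With 12 libraries the spared rises numbered 50 and the spared falls 21.

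**Figure D1:**
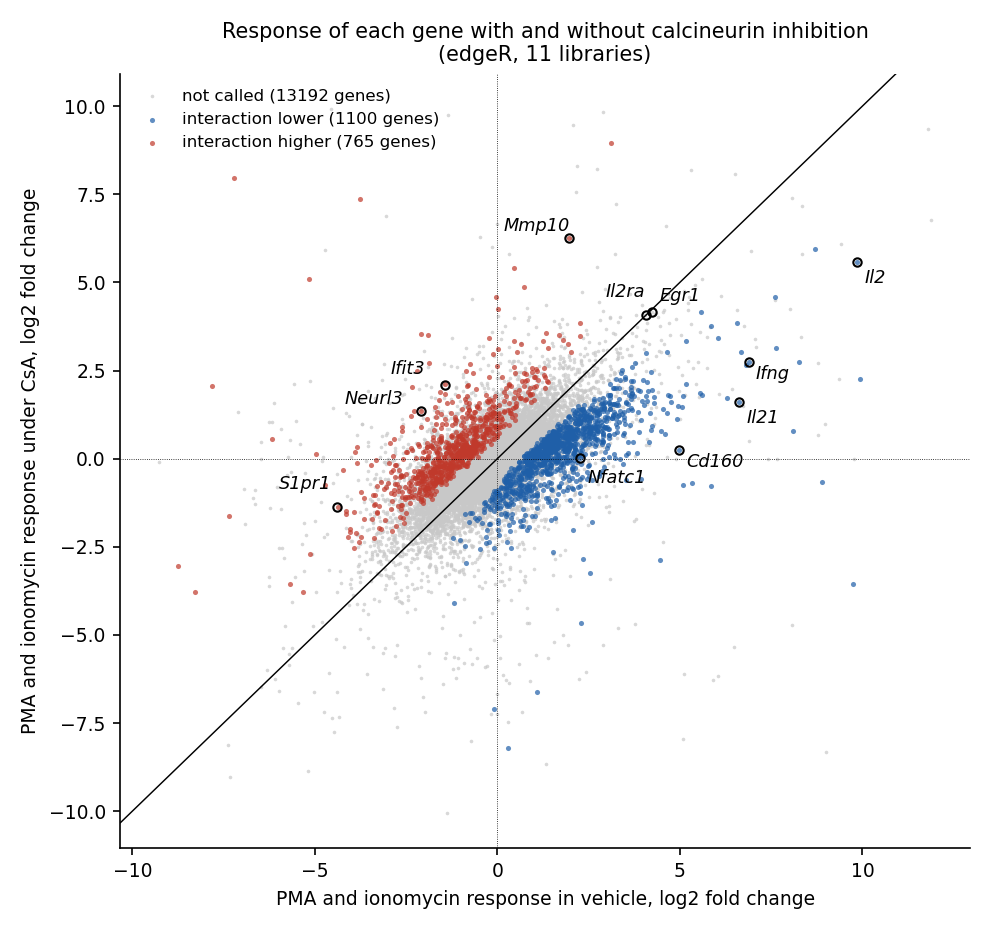
Log2 response to PMA and ionomycin in vehicle (x axis) and under CsA (y axis) for the 15057 genes tested with edgeR in 11 libraries, 1 point per gene. Points on the diagonal line have equal responses; the 1100 genes with a lower interaction (blue) lie below it and the 765 with a higher one (red) above it, with Il2 at 9.85 and 5.57 and Egr1 near the line at 4.23 and 4.17.

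Few genes passed the test for CsA alone, and those that missed it were not shown to be unchanged. In unstimulated cells 7 genes differed between CsA_US and ethanol_US, 1 higher and 6 lower, and 6 of these were among the 1865. With 12 libraries 1 of them, Gbp11, passed the test. The 2 contrasts share the CsA_US and ethanol_US libraries, so their values are only set side by side. Egr2, a zinc finger factor induced by antigen receptor signals, stood at 78.4, 44.5 and 32.2 CPM in ethanol_US and at 6.84, 7.66 and 4.73 CPM in CsA_US, a log2 difference of -3.0 ± 0.33 (SE, adjusted p = 0.00771; 12 libraries, adjusted p = 0.404). After stimulation it reached 1392, 1245 and 1343 CPM in vehicle and 123 and 204 CPM under CsA. The groups with and without CsA did not overlap at either state, and the responses were 4.68 in vehicle and 4.66 under CsA, with an interaction of -0.02 (95% confidence interval -1.12 to 1.09). Egr2 was thus lower with CsA at both states with no interaction detected. The interval is too wide for it to count as spared.

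The promoters of 5 genes are printed to show the kinds of response, with the 250 bases before the RefSeq transcription start on GRCm38.p6, 5′ to 3′ on the gene's strand. Capitals mark GGAAA, the core bound by NFAT, or TGANTCA, the site bound by AP-1, on either strand (TTTCC is GGAAA on the other strand), each motif counted separately even where bases are shared. Il2 (chr3:37125955-37126204, minus strand) and Tnfsf14 (chr17:57194182-57194431, minus strand) lost most of their rise under CsA, Il2ra (chr2:11642542-11642791, plus strand) was spared, Mmp10 (chr9:7502092-7502341, plus strand) rose further, and Neurl3 (chr1:36273426-36273675, minus strand) changed direction.
Il2: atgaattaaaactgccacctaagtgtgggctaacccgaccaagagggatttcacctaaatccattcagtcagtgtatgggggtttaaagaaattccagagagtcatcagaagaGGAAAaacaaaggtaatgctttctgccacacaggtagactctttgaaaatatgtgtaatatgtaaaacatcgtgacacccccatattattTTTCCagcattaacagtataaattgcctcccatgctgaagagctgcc
Tnfsf14: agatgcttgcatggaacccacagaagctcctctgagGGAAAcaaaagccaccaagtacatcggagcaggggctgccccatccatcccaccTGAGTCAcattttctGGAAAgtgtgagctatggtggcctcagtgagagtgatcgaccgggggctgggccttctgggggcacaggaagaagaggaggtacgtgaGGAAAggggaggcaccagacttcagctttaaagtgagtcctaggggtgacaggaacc
Il2ra: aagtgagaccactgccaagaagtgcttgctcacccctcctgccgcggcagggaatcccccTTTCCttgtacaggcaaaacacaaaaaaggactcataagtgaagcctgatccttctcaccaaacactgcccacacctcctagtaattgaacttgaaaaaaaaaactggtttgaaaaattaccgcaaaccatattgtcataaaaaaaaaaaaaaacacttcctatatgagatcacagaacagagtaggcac
Mmp10: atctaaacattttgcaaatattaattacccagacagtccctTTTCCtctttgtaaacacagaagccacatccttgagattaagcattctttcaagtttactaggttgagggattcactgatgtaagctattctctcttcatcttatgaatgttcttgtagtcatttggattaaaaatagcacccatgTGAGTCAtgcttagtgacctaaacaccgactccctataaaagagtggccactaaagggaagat
Neurl3: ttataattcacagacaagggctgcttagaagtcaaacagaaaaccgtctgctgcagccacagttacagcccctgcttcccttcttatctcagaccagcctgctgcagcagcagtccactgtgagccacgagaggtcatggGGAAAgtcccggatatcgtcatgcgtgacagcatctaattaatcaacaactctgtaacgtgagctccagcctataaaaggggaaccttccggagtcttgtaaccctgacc
In the window from 250 bases before to 50 after the start, GGAAA was present for 59.5% and TGANTCA for 5.13% of the 10321 tested genes with a promoter in the table. GGAAA was present for 60.7% of the 2-fold rises with a lower interaction and for 62.8% of the spared ones. Among the genes called in opposite directions it was present for 72.2% of those that fell in vehicle and 55.1% of those that rose. These shares were not tested, and a match is a description of letters, not of binding. Of the 77 genes chosen for naming, 60 had a promoter in the table.

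Among 20 cytokine genes, 10 had a lower interaction and 0 a higher one, with 8 lower of 19 tested with 12 libraries. Their median response was 6.84 in vehicle and 2.67 under CsA, and the median interaction was -3.73, or -3.43 when the 4 members with fewer than 3 counts in a group were set to that floor. The median over all genes was 0.047. Over all genes tested, 7.31% were lower and 5.08% higher. Among all 2-fold vehicle rises, 39.5% were lower and 1.15% higher. The list counts here and below stand beside these shares, and no list was tested against them. Il2, the T cell growth factor (chr3:37120523-37125959, minus strand, GRCm38), stood at 2.22, 2.46 and 1.17 CPM in ethanol_US and 1993, 1751 and 1689 CPM in ethanol_PI. Under CsA it went from 0.337, 0.718 and 0.458 CPM to 25.5 and 22.6 CPM, with 2.59 CPM in the library labelled CsA_PI 2. Every stimulated CsA library lay far below every stimulated vehicle library and above the unstimulated ones. The interaction was -4.28 ± 0.47 (adjusted p = 0.000119; 12 libraries, -4.84, adjusted p = 0.0208), while the remaining rise under CsA, 5.57, also passed the test (adjusted p = 2.12e-07).

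Ifng, the macrophage-activating cytokine of type 1 helper cells, reached 1968, 1516 and 1331 CPM in ethanol_PI but 85 and 57.2 CPM in CsA_PI, from 7.72 to 14.3 CPM in CsA_US. Its interaction was -4.13 ± 0.42 (adjusted p = 9.04e-05). Tnf, an inflammatory cytokine, reached 258 and 238 CPM under CsA against 4459.8, 2849.8 and 3334 CPM in vehicle and an interaction of -3.03 ± 0.36. The type 2 cytokine Il4 reached 977, 372 and 432 CPM in vehicle and 8.83 and 3.8 CPM under CsA, an interaction of -4.57 ± 0.74 (adjusted p = 0.00348). Il21, which supports B cell help, was at 127, 235 and 189 CPM in ethanol_PI and at 0.477 and 1.14 CPM in CsA_PI. Its response under CsA, 1.60, did not pass the test (adjusted p = 0.149), and its interaction of -5.03 (adjusted p = 0.00636) lost the call without CsA_US replicate 1 (-4.16, adjusted p = 0.102). Lta, the gene next to Tnf that encodes lymphotoxin, had the smallest called difference of the list, -1.08 ± 0.25 (adjusted p = 0.0135; 12 libraries, adjusted p = 0.235). Il10, Il13 and Lif did not pass the test, with interactions of -1.47, -3.32 and -1.07.

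Of 8 chemokine genes, 3 were lower and 0 higher, and 2 were lower with 12 libraries. With library totals, in DESeq2, in 8 libraries and with a replicate block (the library number as a term in the fit), 1 was higher. The same held without ethanol_US replicate 2, ethanol_US replicate 3 or CsA_US replicate 2. The chemokine Xcl1 was at 797, 627 and 598 CPM in ethanol_PI and at 73.3 and 41.1 CPM in CsA_PI, against 21.8 to 34.3 CPM in CsA_US. Its interaction was -3.80 ± 0.40. Ccl4 rose under CsA to 326 and 231 CPM, from 3.05 to 5.75 CPM, and to 3786, 3019 and 2948 CPM in vehicle, an interaction of -2.75 ± 0.54 (adjusted p = 0.00655; 12 libraries, adjusted p = 0.132). Ccl1 is given by levels only, 53.8, 24.3 and 44.2 CPM in ethanol_PI and 0 counts in every CsA_PI library, where 3 counts correspond to at most 0.283 CPM. Arg1, arginase, is likewise given by levels: 52.8, 17 and 24.5 CPM in ethanol_PI and 0.285 to 0.751 CPM in CsA_PI.

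The TNF-family ligands went both ways. Of 8 tested, 6 were lower and 1 higher, with both fits giving these counts. Cd40lg, the ligand by which helper cells activate B cells, was at 4985, 3287 and 3895 CPM in ethanol_PI and 215 and 218 CPM in CsA_PI, with an interaction of -3.70 ± 0.35 (adjusted p = 5.97e-05). Tnfsf14 (LIGHT), the second promoter printed above, was at 365, 254 and 308 CPM against 15.7 and 9.32 CPM, with an interaction of -3.80 ± 0.34. Tnfsf4 (OX40 ligand) was the exception: it stood at 1.94, 2.06 and 2.01 CPM in ethanol_PI but at 18.5 and 17.2 CPM in CsA_PI, from 1.59 to 3.59 CPM in CsA_US. Its response was -0.75 in vehicle (adjusted p = 0.216) and 2.68 under CsA (adjusted p = 0.00114), and the interaction of 3.43 ± 0.67 passed the test (adjusted p = 0.00461; 12 libraries, adjusted p = 0.0344).

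Within the calcineurin and NFAT system, 4 of 24 genes were lower and 3 higher (2 and 3 with 12 libraries), and the list median, -0.23, moved to -0.02 with library totals. Nfatc1, an NFAT member known to be induced by NFAT itself (chr18:80606205-80713071, minus strand, GRCm38), was at 213, 225 and 193 CPM in ethanol_US and 1018, 967 and 1067 CPM in ethanol_PI. Under CsA it stayed between 191 and 232 CPM unstimulated and at 193 and 223 CPM stimulated. The ranges of the 2 CsA groups overlapped, with a response of 0.02 (adjusted p = 0.953), and the interaction of -2.26 ± 0.21 (adjusted p = 4.36e-05) was the same size as the vehicle response. The library labelled CsA_PI 2, at 222 CPM, is in that range too, so the 12-library value was -2.27. The 2 transcripts with the highest levels in ethanol_PI passed the test. Nfatc1-201 had -2.14 (adjusted p = 0.00215 over 38494 transcripts) and Nfatc1-202 had -2.55 (adjusted p = 0.00166). Nfatc1-204, at 98.7 to 108 CPM in ethanol_PI, did not pass (-0.74, adjusted p = 0.774). The split between transcripts is an estimate of kallisto. None of the Crem transcripts tested passed the test.

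Rcan1, which encodes an inhibitor of calcineurin, changed direction. It was at 5, 6.95 and 5.25 CPM in ethanol_US and 13.5, 21.7 and 15.7 CPM in ethanol_PI, but fell from 4.61 to 5.49 CPM in CsA_US to 1.11 and 2.09 CPM in CsA_PI. The interaction was -3.24 ± 0.45 (adjusted p = 0.000513), and with the 6.82 CPM of the library labelled CsA_PI 2 included it was -2.20 (adjusted p = 0.0641). Of its transcripts, Rcan1-201 did not pass the test (-2.44, adjusted p = 0.188). Rcan1-202 did (adjusted p = 0.00708), with 0 CPM in CsA_PI replicates 1 and 3. The rise in vehicle passed for neither transcript (adjusted p = 0.062 and 0.154). Rcan3, a relative of Rcan1, fell to 9.49, 11.5 and 12.3 CPM in vehicle and to 45.6 and 50.8 CPM under CsA, an interaction of 1.91 ± 0.22. Nfatc2 and Nfatc3, the NFAT members of resting T cells, fell in vehicle by 1.26 and 1.63 and had estimates of 0.11 and 0.03 under CsA, with interactions of 1.37 ± 0.34 and 1.67 ± 0.28. The calcium channel subunit Orai1 rose from 52.5 to 68.3 CPM to 397, 249.8 and 371 CPM in vehicle and from 63.6 to 88.5 CPM to 143 and 131 CPM under CsA, an interaction of -1.73 ± 0.29.

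**Figure D2:**
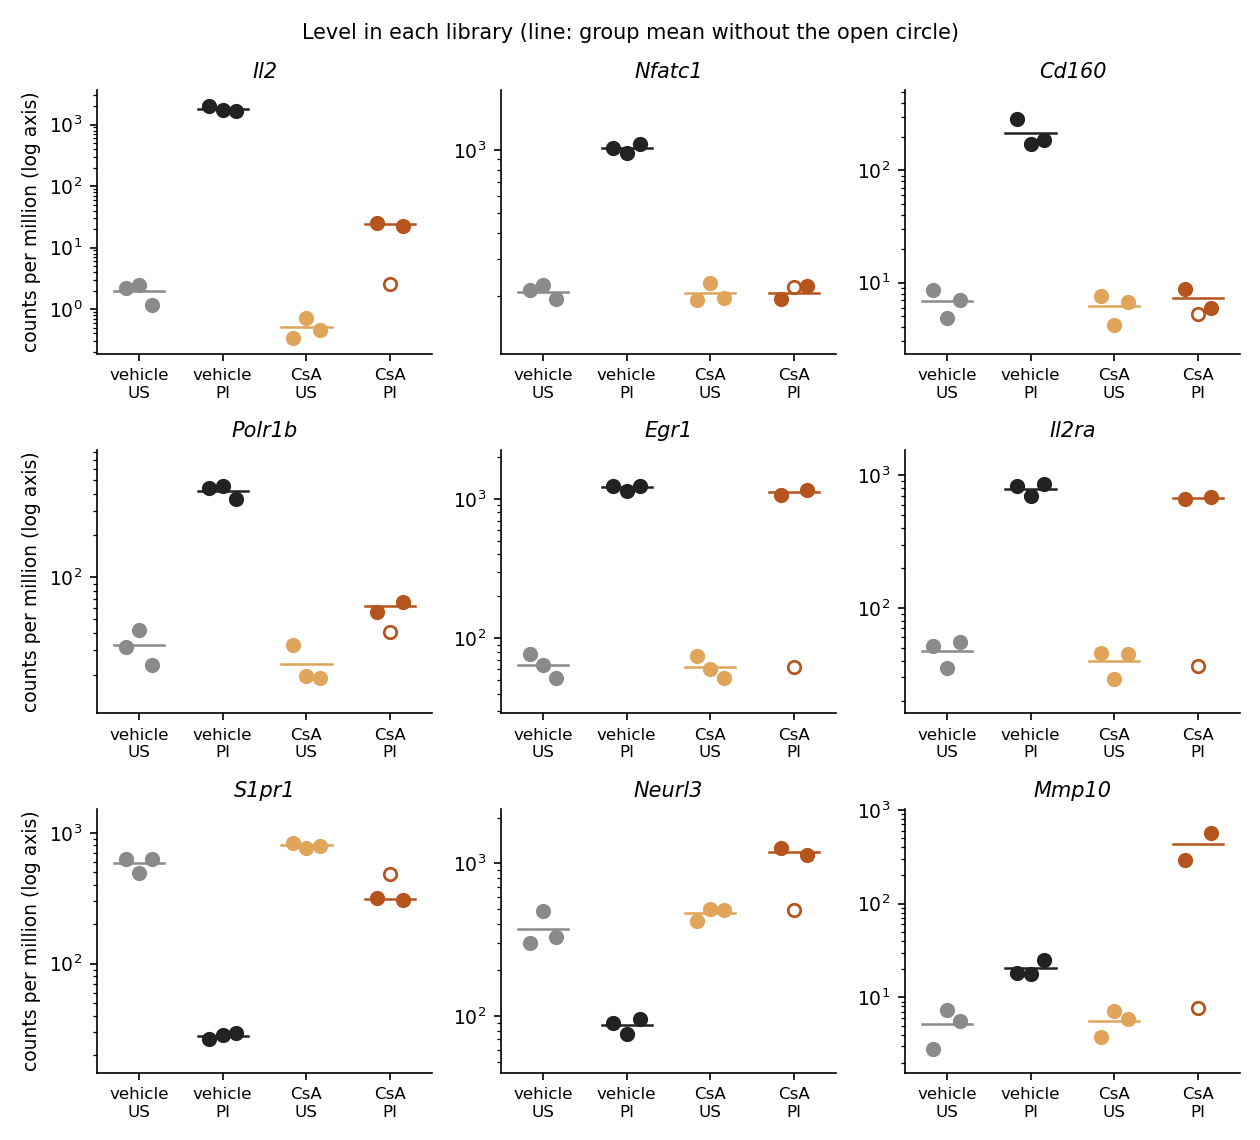
CPM (log axis) of 9 genes in each of the 12 libraries, in the groups vehicle unstimulated (US), vehicle stimulated (PI), CsA US and CsA PI; filled circles are libraries of the 11-library fit, lines are their group means, and the open circle is the library labelled CsA_PI 2. Nfatc1 stays at 191 to 232 CPM in all CsA libraries, Egr1 reaches 1067 and 1166 CPM under CsA, and Mmp10 lies higher in the 2 filled CsA_PI libraries (294 and 559 CPM) than in ethanol_PI (17.9 to 25.2 CPM).

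Among the transcription factors made within minutes of a stimulus, some rose alike in both arms and others did not. Of 12 AP-1 family genes 4 were lower and 0 higher (2 lower with 12 libraries), and of 8 Egr and Nr4a factors 3 were lower and 0 higher (2 lower with 12). Of these genes, 11 AP-1 genes and all 8 Egr and Nr4a factors changed at least 2-fold in vehicle. Over all 2-fold vehicle rises the lower share was 39.5%, so these counts do not set the lists apart. The AP-1 count fell to 2 of 13 without CsA_PI replicate 1 and to 0 of 13 without CsA_PI replicate 3, and was 9 in DESeq2. Egr1, a target of the MAP kinase route, rose from 52.2 to 77.2 CPM to 1246, 1143 and 1249.7 CPM in vehicle and from 52 to 74.6 CPM to 1067 and 1166 CPM under CsA. Its interaction was -0.06 with a 95% confidence interval of -0.62 to 0.49, so it counts as spared. Jun was spared as well, -0.24 with an interval of -0.86 to 0.39. With 12 libraries the values were -0.64 for Egr1 and -0.45 for Jun. Fos, its AP-1 partner, reached 507, 459 and 544 CPM in vehicle and 401 and 403 CPM under CsA, groups that did not overlap. Its interaction of -0.56 had an interval of -1.0 to -0.13 (adjusted p = 0.0908), which meets the definition of spared. It was -1.03 with 12 libraries (adjusted p = 0.31) and passed the test in 8 libraries (-0.73, adjusted p = 0.0375) and in DESeq2 (-0.59, adjusted p = 0.0255).

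The Nr4a orphan receptors, reporters of antigen receptor signals, differed in their values. Nr4a1 reached 20394, 15176 and 18181 CPM in ethanol_PI and 9011 and 9406 CPM in CsA_PI. Its interaction of -0.88 ± 0.31 missed the threshold in the main fit (adjusted p = 0.0864). It passed in DESeq2 (-0.91, adjusted p = 0.0164) and in edgeR with the replicate block (-0.92, adjusted p = 0.0208). With 12 libraries it was -1.44 (adjusted p = 0.393). Nr4a2 reached 1225, 1159.7 and 1246 CPM in vehicle and only 84.3 and 85.9 CPM under CsA, with an interaction of -2.78 ± 0.23 (adjusted p = 2.85e-05). Nr4a3 lay between, with an interaction of -1.93 ± 0.36. The differences between these receptors were not tested. Nr4a2 was also lower with CsA in unstimulated cells, by -1.05 ± 0.15 (adjusted p = 0.022).

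Of 21 other immediate-early and MAP kinase feedback genes, 7 were lower and 2 higher (5 and 1 with 12 libraries). The lower count was 3 without CsA_PI replicate 1, and 4 without CsA_PI replicate 3, ethanol_PI replicate 1 or ethanol_PI replicate 3 and with library totals. Spry1, an inhibitor of receptor signalling to Ras, was at 207, 202 and 190.2 CPM in ethanol_PI and 5.73 and 4.37 CPM in CsA_PI, with an interaction of -3.87 ± 0.41. The higher ones were both MAP kinase phosphatases. Dusp10 fell in vehicle from 209.6, 243 and 229 CPM to 35.8, 34.7 and 51.2 CPM and stood at 249 and 255 CPM in CsA_PI, an interaction of 2.67 ± 0.26. Dusp5, a nuclear phosphatase of ERK, rose to 1265, 839 and 1101 CPM in vehicle and to 4007 and 3730.2 CPM under CsA, an interaction of 1.31 ± 0.25 (12 libraries, 0.74, adjusted p = 0.705). Of 7 factors that degrade messenger RNA, Zc3h12a and Zfp36l1 were lower and Zfp36l2, Zc3h12d and Rc3h2 higher. With 12 libraries 1 was lower and 2 higher, and the calls of Zfp36l1 (-1.5, adjusted p = 0.212) and Zfp36l2 (0.98, adjusted p = 0.333) were lost. The lower count was 0 without ethanol_PI replicate 1 or CsA_PI replicate 3, and 1 without ethanol_PI replicate 3 or CsA_PI replicate 1. The call of Zc3h12a (-1.23, adjusted p = 0.0223) was lost without CsA_PI replicate 1 (adjusted p = 0.0679), CsA_PI replicate 3 (adjusted p = 0.117) or ethanol_PI replicate 1 (adjusted p = 0.0533).

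In the NF-kB pathway, which PMA reaches through protein kinase C, 7 of 20 genes were lower and 3 higher, 5 and 1 with 12 libraries, and 6 and 6 with library totals. Of the 20, 16 changed at least 2-fold in vehicle, and 39.5% of all 2-fold vehicle rises were lower. The higher count was also 1 when any single library of ethanol_PI or CsA_PI, or CsA_US replicate 3, was left out. Nfkbia, the inhibitor IκBα, rose in vehicle to 3357, 2906 and 3239 CPM and had 1131 and 1035 CPM under CsA, close to the 956 to 1009 CPM of CsA_US. Its interaction was -1.93 ± 0.22 (adjusted p = 0.000147). Nfkbid, a nuclear IκB protein, had -2.08 ± 0.34 and still rose by 3.76 under CsA (12 libraries, -2.62, adjusted p = 0.0708). Nfkb2 showed equal rises, with 821 to 957 CPM in vehicle and 985 and 1014 CPM under CsA, and was spared at -0.03 with an interval of -0.49 to 0.43. Tnfaip3 (A20), a deubiquitinase that limits NF-kB, was spared at -0.27 with an interval of -0.90 to 0.36 (12 libraries, -0.56, adjusted p = 0.417). Traf1, a TNF receptor adaptor, rose further under CsA, to 1261 and 1209.7 CPM against 489.5 to 547 CPM in vehicle, an interaction of 1.02 ± 0.21 (12 libraries, 0.59, adjusted p = 0.542).

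Surface molecules of activated cells also differed in their responses. Of 14 surface activation receptors 5 were lower, 1 higher and 3 spared (3 lower and 1 higher with 12 libraries). Without ethanol_US replicate 2, with library totals, with the replicate block and in 8 libraries, 2 were higher. Of the 14, 12 changed at least 2-fold in vehicle, and 39.5% of all 2-fold vehicle rises were lower. Il2ra (CD25), the high-affinity subunit of the IL-2 receptor, rose from 35.2 to 55.6 CPM to 823, 693 and 861 CPM in vehicle and from 28.9 to 45.8 CPM to 664 and 687 CPM under CsA. The interaction was 0.03 with an interval of -0.63 to 0.68, beside the -4.28 of the gene for its ligand, and it was -0.54 with 12 libraries (adjusted p = 0.806). Cd69, an early marker that retains cells in lymphoid tissue, reached 5307 to 5483 CPM in vehicle and 1703 and 1977 CPM under CsA (interaction -1.08 ± 0.22, adjusted p = 0.0069; 12 libraries, -1.58, adjusted p = 0.176). Slamf1, a self-binding costimulatory receptor, had the smallest adjusted p of the lower genes (1.65e-05): it was at 1004, 927 and 979 CPM in ethanol_PI and 36 and 39.6 CPM in CsA_PI, an interaction of -3.69 ± 0.25. Cd28, the costimulatory receptor of T cells, went the other way, from 309.6 to 369.9 CPM down to 209.5 to 245 CPM in vehicle and from 268 to 347 CPM up to 898 and 866 CPM under CsA. Both responses passed the test, and the interaction was 2.08 ± 0.21 (12 libraries, 1.70, adjusted p = 0.0299).

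Of 14 inhibitory receptors and anergy genes, 6 were lower and 1 higher, and 4 and 1 with 12 libraries. Cd160, an inhibitory receptor that binds HVEM, was at 286, 172 and 185 CPM in ethanol_PI and 8.83 and 5.9 CPM in CsA_PI, against 4.19 to 7.66 CPM in CsA_US, and the 2 CsA groups overlap. Its interaction was -4.72 ± 0.46 (adjusted p = 9.04e-05). Btla, which shares the ligand HVEM, had -2.50 ± 0.33 and Ctla4, which competes with CD28, had -1.59 ± 0.21. Vsir (VISTA), another inhibitory receptor, reached 2017 to 2469 CPM in vehicle and 216 and 226 CPM under CsA, an interaction of -3.0 ± 0.24. Dgka, a kinase that removes diacylglycerol, was the higher one: it fell by 1.60 in vehicle and no change was detected under CsA (0.27, adjusted p = 0.196), with an interaction of 1.88 ± 0.20.

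Genes of resting and homing T cells mostly fell in vehicle. Of 20 such genes, 6 were higher and 2 lower (5 and 1 with 12 libraries). Of the 20, 12 changed at least 2-fold in vehicle, and 18.4% of all 2-fold vehicle falls were higher and 0.129% lower. S1pr1, the receptor that lets T cells leave lymphoid organs, fell in vehicle from 629, 494 and 629.5 CPM to 26.4, 28.5 and 29.3 CPM. Under CsA it fell from 768 to 837 CPM only to 319 and 304 CPM, and the interaction of 3.01 ± 0.20 had the smallest adjusted p of the higher genes (1.65e-05). Tcf7 (TCF-1), a factor of naive and memory cells, fell in vehicle from 583 to 929.7 CPM to 106, 77.8 and 128 CPM but stood at 733 and 715 CPM in CsA_PI, an interaction of 2.64 ± 0.32. Il7r, the survival receptor of resting T cells, had 1.76 ± 0.31. Ccr7, the lymph node homing receptor, fell by 1.23 in vehicle and rose by 0.96 under CsA, with 3935 and 3774 CPM in CsA_PI against 496 to 1015 CPM in ethanol_PI.

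Other genes of resting cells fell in both arms. Klf2, the factor that maintains S1pr1 expression, fell in vehicle from 58.1 to 102 CPM to 15.4, 7.76 and 21.4 CPM and under CsA from 109 to 199.6 CPM to 8.83 and 10.1 CPM. Its interaction was -1.56 ± 0.53 (adjusted p = 0.089), opposite in sign to that of S1pr1. It passed the test without ethanol_PI replicate 2 (-1.90, adjusted p = 0.0141) and in 8 libraries (-1.70, adjusted p = 0.0253). The same held with the replicate block (-1.69, adjusted p = 0.00592) and in DESeq2 (-1.59, adjusted p = 0.00883). With 12 libraries it was -0.26 (adjusted p = 0.901), with Klf2 at 52.8 CPM in the library labelled CsA_PI 2. Txnip, an inhibitor of glucose uptake, fell by 4.05 in vehicle and 3.54 under CsA. Il6ra, the IL-6 receptor, fell further under CsA, from 206 to 256 CPM to 31.4 and 26.9 CPM, with 101 to 127 CPM in ethanol_PI. Its interaction of -2.11 ± 0.23 rested on leaving out the library labelled CsA_PI 2 at 178 CPM (12 libraries, -0.72, adjusted p = 0.646). Among the spared falls with the largest vehicle responses were Rflnb (-5.71 in vehicle, -5.55 under CsA), Fbxo32, a ubiquitin ligase subunit of FOXO programs (-3.95 and -3.88), and Fam78a (-3.77 and -3.50). With 12 libraries these were not spared: the CsA responses were -1.91, -1.33 and -1.40 and the interactions 3.74, 2.57 and 2.30, none of which passed the test (adjusted p = 0.176, 0.243 and 0.223).

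Of 17 helper and regulatory lineage factors, 3 were lower and 1 higher (2 and 1 with 12 libraries), with 1 lower without CsA_PI replicate 1 and with library totals. Tbx21 (T-bet), the type 1 factor, was at 554, 589.6 and 464 CPM in ethanol_PI and 67 and 66.8 CPM in CsA_PI, an interaction of -2.83 ± 0.31. Bcl6, the follicular helper factor, fell in vehicle to 47.3 to 53.5 CPM from 123 to 186 CPM and rose under CsA to 194 and 203 CPM from 109.7 to 154 CPM, with an interaction of 2.15 ± 0.25. Both interaction calls held with 12 libraries (-3.13 and 1.92). The list counts stand beside 7.31% lower and 5.08% higher over all genes tested, and 1 higher of 17 is near that share.

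Ribosome assembly was the list in which every tested member was called. All 24 genes had a lower interaction in edgeR with 11 and with 12 libraries, and 22 did with library totals and 22 with 8 libraries. The median rise was 2.32 in vehicle and 0.72 under CsA. Polr1b, a core subunit of RNA polymerase I, went from 23.6 to 42.1 CPM to 436, 456 and 364 CPM in vehicle and from 19.1 to 32.6 CPM to 56.6 and 67.2 CPM under CsA, an interaction of -2.31 ± 0.36. The processing factor Rrp9 was at 687 to 791 CPM against 143 and 141 CPM (-2.30 ± 0.19). Rrn3, the polymerase I initiation factor, had the smallest difference of the list, -0.74 ± 0.23.

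Myc, which drives such growth genes, rose to 3719.7, 3572 and 3534 CPM in vehicle and to 675 and 726 CPM under CsA, from 33.5 to 47.7 CPM. Its interaction was -1.41 ± 0.33 (adjusted p = 0.0125); the call was lost with 12 libraries (adjusted p = 0.168), without CsA_PI replicate 1 (adjusted p = 0.0653) and without CsA_PI replicate 3 (adjusted p = 0.0532). Its antagonist Mxd1 (MAD1), which competes for the partner Max, went the other way. Mxd1 was at 86.2, 115 and 86.7 CPM in ethanol_US and 71.5, 99.6 and 93.2 CPM in ethanol_PI, groups that overlap, and went under CsA from 78.2 to 96.7 CPM to 529.9 and 805 CPM. The interaction was 3.08 ± 0.28 (adjusted p = 4.44e-05; 12 libraries, 2.59, adjusted p = 0.0395).

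Metabolic and chaperone genes were lower where they differed. Counts were 6 of 17 for glycolysis, 6 of 15 for amino acid transport and ATF4 genes and 8 of 13 for heat shock and chaperone genes, with 0 higher in each. With 12 libraries they were 5, 5 and 6. Of the tested members, 10, 10 and 9 changed at least 2-fold in vehicle. Among all 2-fold vehicle rises 39.5% were lower and 1.15% higher, so the glycolysis and amino acid counts do not set those lists apart. The heat shock count was 4 without CsA_PI replicate 3, and 5 without CsA_PI replicate 1 or ethanol_US replicate 1 and with library totals. The hexokinases had the lowest values of the glycolysis list: Hk1 rose in vehicle to 436 to 480.4 CPM and was at 67.9 and 76.2 CPM under CsA (-2.62 ± 0.27), and Hk2 was at 48.3 to 65.4 CPM against 6.28 and 10.4 CPM (-2.68 ± 0.47). The glycolytic enzymes Gapdh and Pgk1 had interactions of -0.02 and 0.09. Outside these lists, Shmt1, a serine and folate enzyme, was at 266 to 327 CPM against 25.6 and 29.4 CPM (-3.05 ± 0.24). The chaperone Hspa4l was at 294 to 379 CPM against 14.5 in both CsA_PI libraries (-3.06 ± 0.28), and it was also lower with CsA unstimulated, by -1.48 ± 0.18 (adjusted p = 0.00771).

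Cholesterol synthesis differed from these lists in its counts. Of its 15 genes 0 were lower, 4 were higher (1 with 12 libraries), and 5 of the 9 genes that changed at least 2-fold in vehicle were spared. The higher count was 1 without CsA_PI replicate 1 or CsA_US replicate 3, and 2 without CsA_PI replicate 3, when any single ethanol_PI library was left out, without the count filter and in 8 libraries. Squalene epoxidase, Sqle, reached 325, 277 and 275 CPM in vehicle and 316 and 315 CPM under CsA, with an interaction of -0.09 and an interval of -0.62 to 0.44 (12 libraries, -0.66, adjusted p = 0.733). Cyp51 reached 421 to 505 CPM and 484 and 475 CPM. Fdft1, squalene synthase, rose by 0.45 in vehicle and 1.73 under CsA, an interaction of 1.28 ± 0.20 (12 libraries, 0.85, adjusted p = 0.329). The list median was 0.30 and became -0.05 with 12 libraries.

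**Figure D3:**
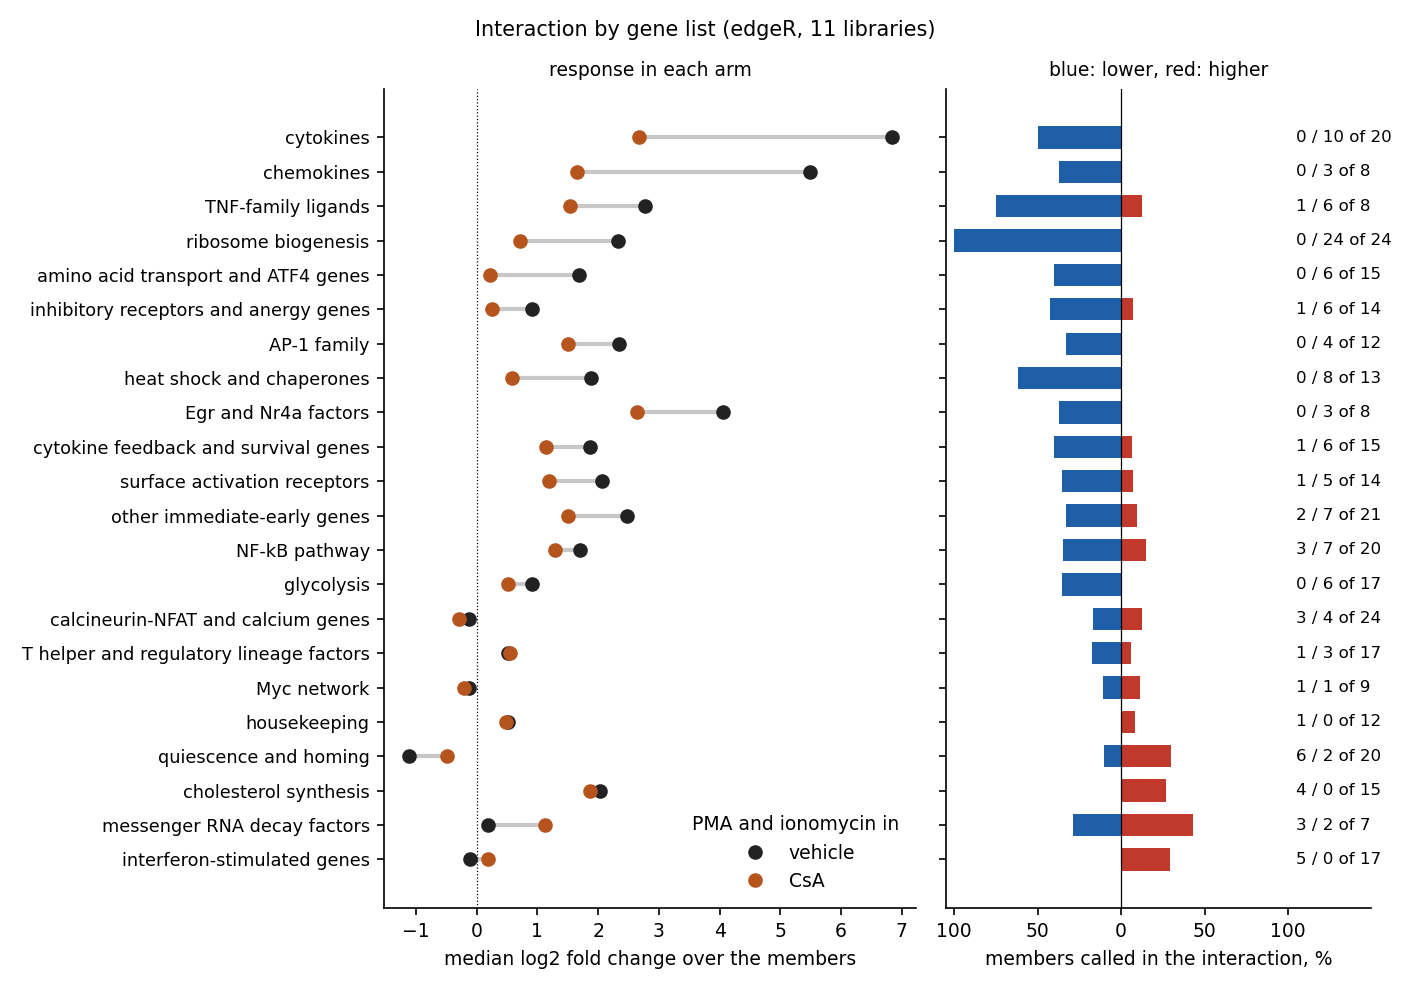
Left, median log2 response to PMA and ionomycin over the tested members of 22 gene lists in vehicle (black) and under CsA (orange-brown). Right, the percentage of members with a lower (blue, to the left) or higher (red, to the right) interaction, with the counts higher / lower of tested; ribosome biogenesis has 0 / 24 of 24 and the interferon-stimulated genes 5 / 0 of 17.

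Interferon-stimulated genes were higher where they differed, 5 of 17 against 0 lower (3 with 12 libraries). Ifit3, an interferon-induced protein, went down in vehicle, from 6, 9.65 and 13.9 CPM to 3.31, 4.39 and 3.19 CPM, and up under CsA, from 5.44 to 9.1 CPM to 23.6 and 40.3 CPM, an interaction of 3.53 ± 0.49. Its near copy Ifit3b showed 5.63 ± 0.77, but reads of near-identical copies may be split between them, so the share of each is uncertain. On the 12-library scale, the interferon-induced GTPase Gbp11 was at 1.66 to 3.07 CPM in CsA_US against 11.9 to 15.3 CPM in ethanol_US, and at 11.4 and 10.0 CPM in CsA_PI against 7.66 to 8.58 CPM in ethanol_PI. Its interaction of 2.89 thus joins a difference before stimulation to levels that lay closer after it. Gbp2, another such GTPase, had 114 to 142 CPM in CsA_US against 261 to 315 CPM in ethanol_US, and 1012 and 1349.6 CPM in CsA_PI against 771 to 808 CPM in ethanol_PI.

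Direction itself changed for 125 of the 1865 genes, called in both arms with opposite signs: 60 rose in vehicle and fell under CsA, and 65 fell and rose. With 12 libraries 17 remained, all within the 125. Neurl3, a ubiquitin ligase, fell in vehicle from 302, 484 and 330.4 CPM to 90.2, 76.1 and 95.9 CPM and rose under CsA from 419, 499.5 and 494 CPM to 1256 and 1135 CPM, an interaction of 3.44 ± 0.27. Gtf2i, a general transcription factor, fell in vehicle to 93.2 to 109 CPM from 357 to 420.3 CPM and rose under CsA to 1000.4 and 840.1 CPM (3.03 ± 0.22). Eif2ak3 (PERK), the endoplasmic reticulum stress kinase, went to 30.7 to 31.8 CPM in vehicle and to 233 and 289 CPM under CsA (2.97 ± 0.25). In the other direction, Frat2, a GSK3-binding protein, rose in vehicle to 47.7, 27.4 and 48.4 CPM and fell under CsA from 6.55 to 17.1 CPM to 1.99 and 0.571 CPM. Txnrd3, a thioredoxin reductase, rose to 70.5 to 82.4 CPM in vehicle and fell under CsA from 13.4 to 17.7 CPM to 10.5 and 9.32 CPM (-3.19 ± 0.27). For each of Neurl3, Gtf2i, Eif2ak3, Frat2 and Txnrd3, stimulated and unstimulated libraries did not overlap in either arm of the 11-library set.

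A small class, 24 genes raised at least 2-fold in vehicle, had a larger rise under CsA. With all 12 libraries 0 of the vehicle rises of at least 2-fold had a higher interaction. Mmp10, a matrix metalloproteinase, rose in vehicle from 2.83, 7.31 and 5.54 CPM to 18.2, 17.9 and 25.2 CPM, and under CsA from 3.81 to 7.18 CPM to 294 and 559 CPM. The interaction was 4.28 ± 0.54 (adjusted p = 0.000651; 12 libraries, 3.67, adjusted p = 0.146, with 7.71 CPM in the library labelled CsA_PI 2). Lmna, which encodes lamin A and C, reached 73.9 to 91.1 CPM in vehicle and 477 and 486 CPM under CsA (2.24 ± 0.22), and Smox, spermine oxidase, 167 to 189 CPM and 652 and 724 CPM (1.83 ± 0.18). Bcl2l11 (BIM), a death-promoting BCL-2 relative, reached 203 to 255 CPM and 526 and 594 CPM (1.29 ± 0.24). Actb, the cytoskeletal actin often used as a reference gene, reached 6709 to 7158 CPM and 15783 and 13286 CPM (1.31 ± 0.29; without CsA_PI replicate 1, 1.18, adjusted p = 0.0572). Lmna and Smox were picked after their values were seen. Of the 21 genes with a promoter in the table, 6 (28.6%) had TGANTCA in the window: Arap2, Gbp2, Lmna, Mmp10, Msmo1 and Zyx. The motif was present for 5.13% of all tested genes and 7.51% of all 2-fold vehicle rises. Among all genes with a larger rise under CsA, whatever the size in vehicle, it was present for 7 of 71 (9.86%). The 28.6% is a description of a small class and was not tested.

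Other genes at the ends of the ranking add to these classes. Among the lower ones, Prnp, the prion protein gene, was at 86.9 to 118 CPM in ethanol_PI and 11.2 and 9.6 CPM in CsA_PI (-3.61 ± 0.27), and Ubash3b, a phosphatase that dampens T cell receptor signalling, was at 549 to 625 CPM against 70.7 and 69.8 CPM (-2.74 ± 0.20). Among the higher ones, Il16, a precursor cytokine of resting T cells, fell in vehicle to 32.6 to 47 CPM from 367 to 458 CPM and stood at 368 and 491 CPM in CsA_PI (3.30 ± 0.27). Spata13, a guanine nucleotide exchange factor, had 2.57 ± 0.22, and Fanci, a DNA repair gene, 4.07 ± 0.54. All 5 of these calls held with 12 libraries. Tom1 (-6.62) and Cables1 (3.65) were called at low and scattered counts, and both calls were lost without CsA_PI replicate 1 (adjusted p = 0.0741 and 0.11) or CsA_PI replicate 3 (adjusted p = 0.0694 and 0.0684). That of Cables1 was also lost with 12 libraries (adjusted p = 0.107).

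**Figure D4:**
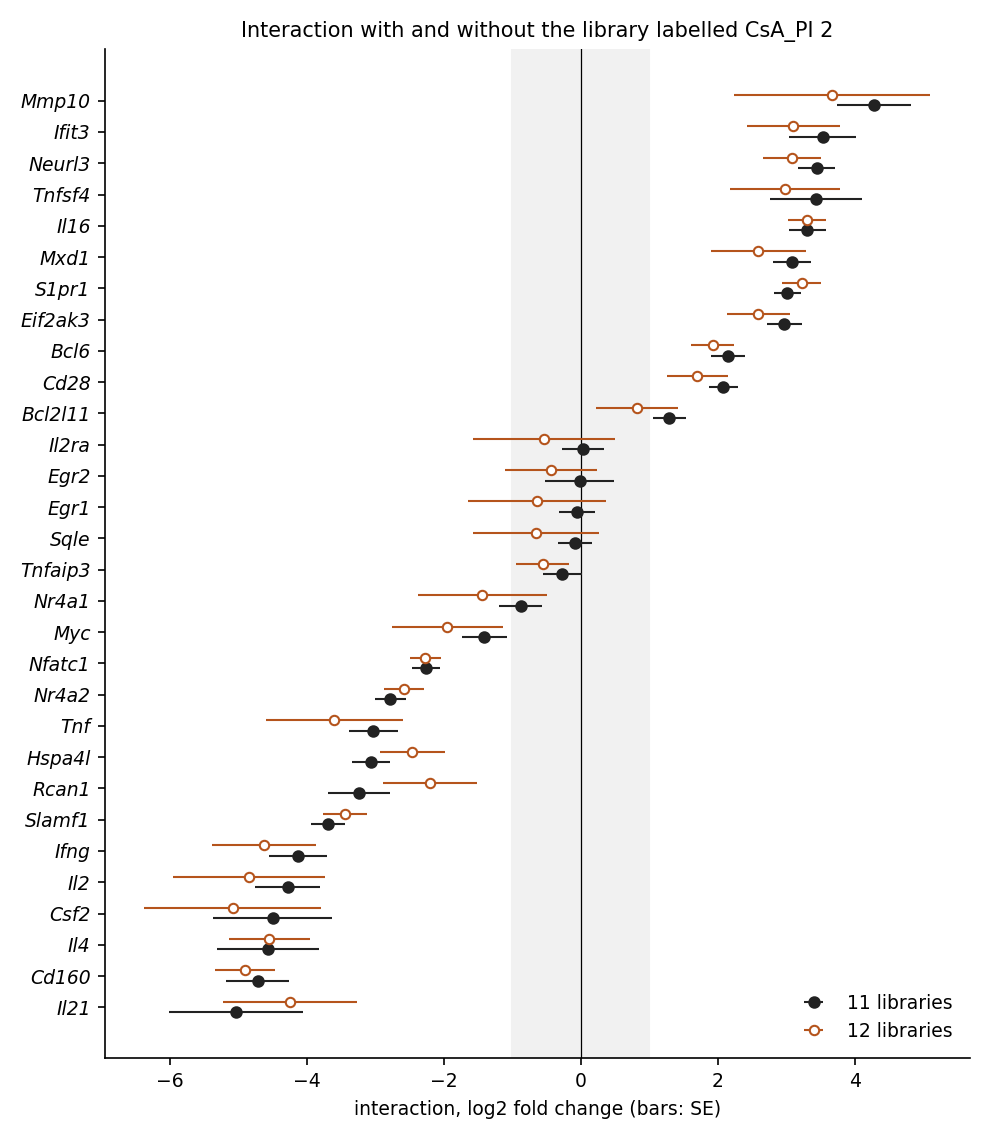
Interaction (log2, bars SE) of 30 genes from the 11-library fit (filled) and from all 12 libraries (open), ordered by the 11-library value; the grey band spans -1 to 1. Lower genes such as Il2 (-4.28 and -4.84) and higher genes such as S1pr1 (3.01 and 3.22) keep their side, while the bars of Il2ra, Egr1 and Sqle widen with the library labelled CsA_PI 2 included.

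The smallest group is CsA_PI, which has 2 libraries in the main fit. Without CsA_PI replicate 3 the test called 1094 genes and without CsA_PI replicate 1 it called 1189, each leaving 1 library whose spread is assumed to equal that of the other groups. All 1865 genes kept their sign in these fits where they were tested. Apart from the fits that leave out 1 further library there were 8 settings, among them the set without the 4 libraries numbered 2. Under every one of these 8 settings 969 genes were called, 344 of them higher and 625 lower.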

How the data were processed

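Per the submitters' processing notes, the authors trimmed reads with cutadapt and quantified them with kallisto for mm10; versions and the transcript annotation are not given in the sources used here. The deposited files list an estimated count and a TPM value for each of 109617 transcripts in each library. Of these, 108214 matched GENCODE vM21 (GRCm38), and their estimated counts were summed per gene and rounded; the 1403 unmatched transcripts held 0.494 to 0.628% of a library. Estimated counts carry an error from reads shared by transcripts or copies that the test does not see. Depth was 10523816 to 18468044 estimated counts per library, so 3 counts are 0.144 to 0.352 CPM on the scaled totals. No pair of libraries had equal counts for more than 1.87% of genes.

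One edgeR 4.0.16 fit (quasi-likelihood, robust, TMM scaling, genes kept by filterByExpr with a minimum count of 10 and total of 15, R 4.3.3) held all 4 groups without the library labelled CsA_PI 2. The contrast was (CsA_PI - CsA_US) - (ethanol_PI - ethanol_US), with Benjamini-Hochberg adjustment over all genes tested, and every adjusted p named in the text is from this test unless another tool is named. Errors are SE, the log2 change divided by the square root of F, and intervals use the t distribution at 95%. Transcripts were tested in the same way. The procedure was checked on simulated counts. Responses were compared by confidence interval where likeness was of interest. Alternatives were all 12 libraries, limma 3.58.1 voom with library weights, RLE scaling, library totals, no count filter, DESeq2 1.42.0, a replicate block and leaving out each library.

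Named genes were a fixed set of activation and resting-state genes; the 8 lowest and 8 highest interactions and the 6 smallest adjusted p in each direction among genes with at least 10 CPM in a group and 10 counts in each group; the 6 largest opposite and 6 largest spared responses; and the lowest and highest called member of each list. Other list members named were added as examples after their values were seen. Members, lists and tests were chosen with earlier results of these data known. Some list members are not reported here by name. Promoters are RefSeq's for GRCm38.p6, the first listed start where a gene has several.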

Additional observations from a re-analysis of the deposited data

Results flagged for a closer look

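For 10 named genes the response was called in opposite directions with and without CsA, and the difference itself was tested as the interaction. Rcan1 (-3.24), Frat2 (-5.79) and Txnrd3 (-3.19) rose in vehicle and fell under CsA. Neurl3 (3.44), Ifit3 (3.53), Ifit3b (5.63), Gtf2i (3.03), Eif2ak3 (2.97), Cd28 (2.08) and Bcl6 (2.15) fell in vehicle and rose under CsA. The response under CsA was near the threshold for Txnrd3 (-0.59, adjusted p = 0.0392) and Bcl6 (0.55, adjusted p = 0.0409). With 12 libraries these 2 responses were -0.42 and 0.38, and 17 of the 125 opposite calls remained.

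The library labelled CsA_PI 2, left out of the main fit, could be placed by the 7 genes that CsA changed in unstimulated cells. Its level was nearer to the ethanol_US libraries than to the CsA_US libraries for all 7, inside the ethanol_US range for 4 and outside both ranges for 3. Gbp11 was at 13 CPM (11.9 to 15.3 in ethanol_US, 1.66 to 3.07 in CsA_US) and Egr2 at 44.6 CPM (32.1 to 79.6 and 4.65 to 7.89). Hspa4l was at 38.8 CPM (34.9 to 37.3 and 10.5 to 17.1), Nr4a2 at 131 CPM (89.7 to 132 and 51.7 to 55.5), Gbp2 at 319 CPM (261 to 315 and 114 to 142) and Gm12250 at 124 CPM (89.4 to 119.8 and 38.7 to 45.2). All CPM here are on the 12-library scale. What that library is was not tested beyond these values.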

How the results depend on the processing

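All 1865 genes kept the sign of the interaction under every setting in which they were tested. The count of calls stayed within 1.5 times for all 12 libraries (1400), RLE scaling (1899), library totals (1957), no count filter (1838), DESeq2 (2400) and the 8 libraries without those numbered 2 (1777, added after the data were seen). It moved to 2976 with limma voom on 12 libraries, where the library labelled CsA_PI 2 had a weight of 0.137. Leaving out 1 further library gave 1094 to 1927 calls, 417 to 608 spared responses and 71 to 137 opposite responses, with the lowest counts without CsA_PI replicate 1 or CsA_PI replicate 3. With all 12 libraries 71 responses were spared and 17 opposite, against 626 and 125; limma voom gave 236 opposite. Of the 77 named genes, 65 kept their side of the threshold with 12 libraries. Rcan1-202 had 0 CPM in CsA_PI 1 and 3 and 6.98 CPM in the library labelled CsA_PI 2, and its interaction was -1.35 (adjusted p = 0.857) with that library.

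With the replicate block, 2274 genes were called, 737 were spared and 163 opposite, and Nr4a1 (-0.92, adjusted p = 0.0208) and Klf2 (-1.69, adjusted p = 0.00592) were then called. With 11 libraries, the correlation of deviations between libraries of the same number was 0.143 to 0.319 for ethanol_US with ethanol_PI, 0.196 to 0.325 for ethanol_US with CsA_US, 0.121 and 0.0438 for ethanol_PI with CsA_PI, and 0.00511 and 0.086 for CsA_US with CsA_PI. With 12 libraries the last were 0.0333, 0.11 and 0.123 and those of ethanol_PI with CsA_PI 0.107 to 0.208. Not every pair was above 0.1 and the labels name no shared source, so the main fit did not treat the numbers as pairs. Some marker sums did follow the number. The B cell sum was 540.1 to 1036 CPM for number 2, 83.4 to 120.4 for number 1 and 114 to 166 for number 3. The sum of 8 erythroid and platelet markers was 33.1 to 53.6 CPM for number 3, 101 to 146 for number 1 and 107 to 134 for number 2. Whether libraries of 1 number share a source was not tested.

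Depth limits genes with few counts: 46 called genes had fewer than 10 counts in a group, and their fold changes depend on the prior count. The 2 libraries of CsA_PI limit how many responses can be called equal, and 977 of the 2-fold vehicle rises and 1531 of the falls were neither called nor spared.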

Other observations

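Of the 15057 genes tested, 12439 were protein-coding, and 1773 of these (14.3%) were called, against 22 of 414 lincRNA genes (5.31%). The difference between these shares was not tested, and the kinds of gene were not matched by level. A called response under CsA of at least 2-fold, with no response called in vehicle, was found for 164 of the 1865 genes, 89 of them higher under CsA, and for 29 (21 higher) with 12 libraries. Mxd1, Tnfsf4 and Zfp36l2 are in this class, with responses under CsA of 2.96, 2.68 and 1.63.

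The motif TGACG, bound by CREB and ATF factors, was present in the promoter window of 42.9% of the 191 spared 2-fold rises with a promoter in the table, 37.6% of the 657 with a lower interaction and 31.5% of the 10321 tested genes. Over all 2-fold rises with a promoter in the table the share was 36.3%. For 2-fold falls the shares were 27.9% (spared), 26.2% (interaction higher) and 28.2% (all). The median genomic span was 23.9 kb for spared rises, 17.4 kb for rises with a lower interaction and 18.2 kb for all tested genes. These shares and spans are descriptions without a test.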
